A study of Mus musculus with 14 samples.

Results

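Integrins and laminins were followed as 1 family of adhesion genes: 37 chains, 27 of integrins and 10 of laminins, out of 19938 genes measured on the array. Members were chosen by name alone, as genes whose symbol follows the pattern of integrin alpha and beta chains (Itga and Itgb) or of laminin alpha, beta and gamma chains (Lama, Lamb and Lamc). The pattern also found 4 symbols that encode no chain and were left out (Itgb1bp1, Itgb1bp2, Itgb3bp and Itgbl1). RNA came from C57BL/6 mouse material in 7 groups of 2 arrays each. Differentiated gallbladder organoids had spent 2 weeks in a medium from which R-spondin 1, noggin and also nicotinamide were left out. Gallbladder organoids, liver organoids and small intestine organoids are given by the labels with 1 growth protocol, in which the epithelial cultures grew in Matrigel with EGF, FGF10, HGF, nicotinamide, R-spondin 1 and noggin. The tissues, gallbladder and liver and small intestine, are not described as separated into layers or cell types, and such tissue holds muscle, connective tissue, vessels and blood cells beside epithelium. The age and number of the mice behind each group were not given in the sources used here.

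Laminins are cross-shaped proteins of 1 alpha, 1 beta and 1 gamma chain that form the sheet of the basement membrane under an epithelium. Integrins are receptors of 1 alpha and 1 beta chain that span the cell membrane and bind laminin, collagen, fibronectin or other ligands outside the cell and the cytoskeleton inside. Epithelial cells hold laminin mainly through the pairs alpha 3 with beta 1 and alpha 6 with beta 4, and white blood cells use a set of integrins of their own. Matrigel, the gel around the organoids, is itself a laminin-rich basement membrane extract.

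Values are log2 probe set signals, so a difference of 1 is a change by a factor of 2, and because probe sets differ in brightness each gene was compared only with itself. Array medians over all genes lay between 7.74 and 7.93. Replicates differed by a pooled SD over the 37 chains of 0.0845 to 0.217 within organoid groups, and of 0.277 to 0.395 within tissue groups. The labels do not tie the replicates to different animals or cultures, so the p-values rest on the spread between replicate arrays, which may be technical. For each gene that spread was pooled over all 7 groups, so it is not that of the groups compared alone. Over all genes the pooled SD was 0.0952 to 0.136 within organoid groups and 0.289 to 0.404 within tissue groups. Epithelial markers (Epcam, Cdh1, Krt8, Krt18 and Krt19, all 5 measured) averaged 13.05 to 13.43 in the organoid arrays, 12.64 to 13.14 in gallbladder and small intestine tissue and 9.76 to 10.19 in liver tissue. Markers of smooth muscle averaged 6.69 to 7.02 in organoids against 12.78 to 13.20 in gallbladder tissue, 7.83 to 7.90 in liver tissue and 11.31 to 11.41 in small intestine tissue. Hepatocyte markers averaged 13.36 and 14.15 in the 2 gallbladder tissue arrays, close to the 14.26 and 14.28 of liver tissue. In small intestine tissue the pancreatic enzyme gene Cpa1 read 6.79 in replicate 1 and 13.52 in replicate 2. The part of these other cells in the tissue results was not tested. Where a called difference is printed, its losses when 1 array was left out are named with it. The adjusted p of limma's fit without that array is in parentheses. The counts of called chains below include calls lost in such fits, among them Itga2b, Itgb2l and Lama2 in gallbladder against small intestine organoids.

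**Figure D1:**
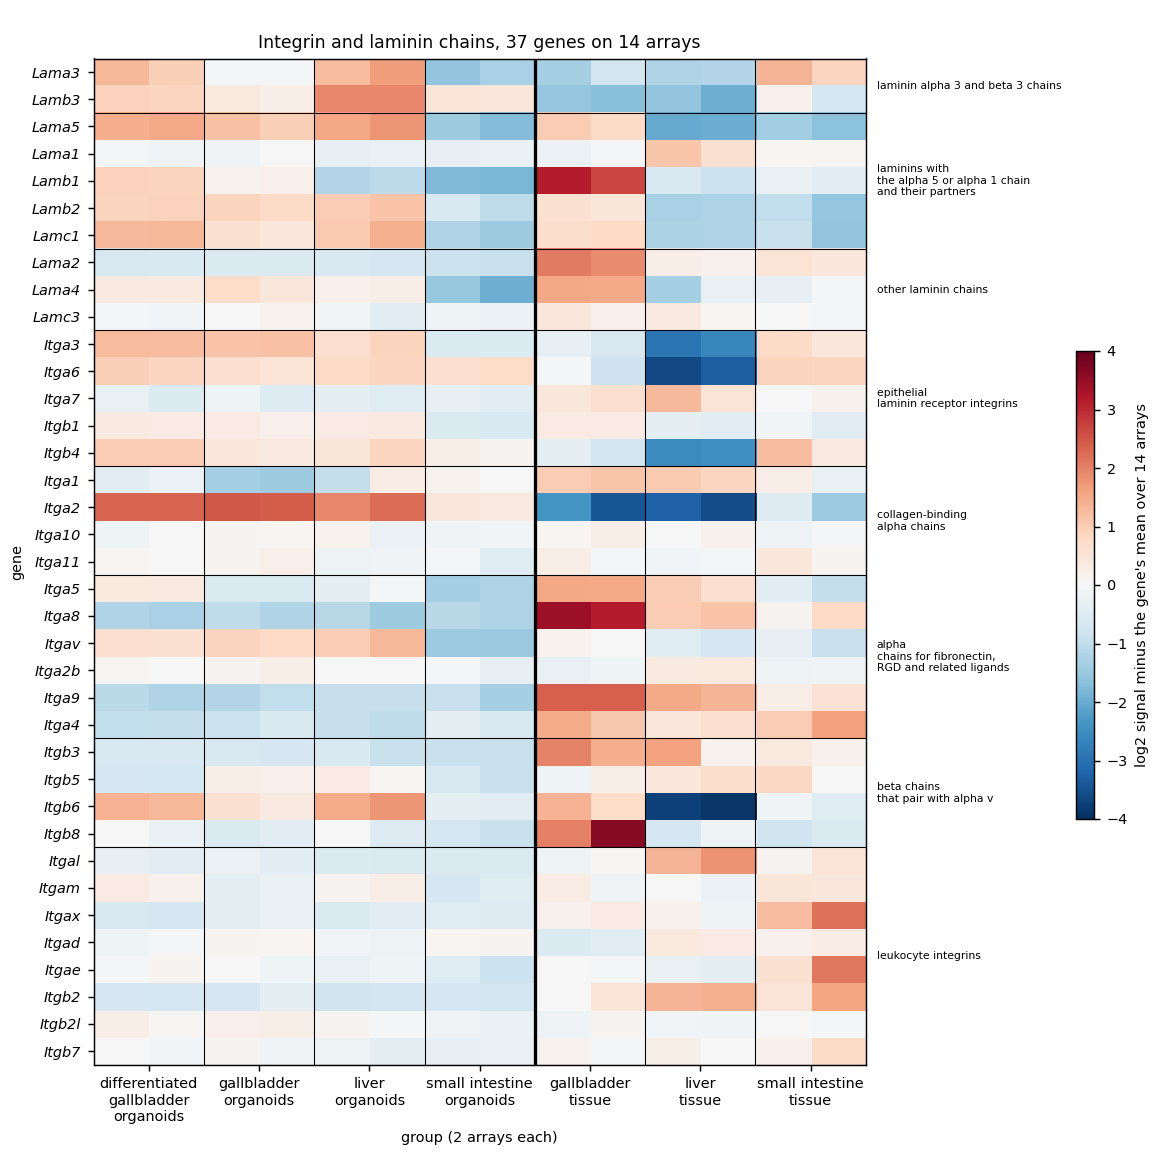
Log2 signal of the 37 integrin and laminin chains on 14 arrays, as a difference from each gene's own mean over all arrays (red higher, blue lower, colour scale from -4 to 4 log2 units). Columns are arrays, 2 for each group, with organoids left and tissues right of the thick line, and rows are grouped by role. Itga2 is above its mean in every organoid column, and Itga8 and Itga9 are high in tissue columns. Lama5, Lamb2 and Lamc1 are low in small intestine organoids and also in liver and small intestine tissue.

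Among organoids, the chains, like all genes, were called most often between the small intestine and the other 2 origins. Each comparison was tested with limma, and a chain was called at an adjusted p below 0.05 over all 19938 genes. In gallbladder against small intestine organoids 17 of 37 chains were called, 16 higher and 1 lower, beside 35.6% of all genes (20.2% higher and 15.4% lower). In liver against small intestine organoids 15 were called, all higher, beside 26.5% of all genes (14.2% higher and 12.2% lower). The median difference of the 37 chains was 0.30 and 0.23 in these comparisons, against 0.11 and 0.05 over all genes. Between gallbladder and liver organoids 6 chains were called, 1 higher and 5 lower, beside 12.7% of all genes (6.17% higher and 6.52% lower). Between differentiated and undifferentiated gallbladder organoids 5 chains were called, all higher, beside 4.73% of all genes (2.8% higher and 1.93% lower). In this last comparison the median of the 37 chains was -0.03 and that of all genes -0.04.

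Between organoids and tissue many genes were called. In gallbladder and liver the called chains split into those high in culture and those high in tissue. Most of those called in small intestine were lower in culture. In these bulk samples, fewer cells of a type and less RNA per cell cannot be told apart. In gallbladder organoids against gallbladder tissue 21 chains were called, 9 higher and 12 lower (47.9% of all genes, 32.7% higher and 15.2% lower). Liver organoids differed from liver tissue in 27 chains, 13 higher and 14 lower (44.9% of all genes, 26.7% higher and 18.2% lower). In small intestine organoids against small intestine tissue 21 were called, 2 higher and 19 lower (35.8% of all genes, 20.2% higher and 15.6% lower). Among tissues, gallbladder against liver gave 17 chains higher and 5 lower (48.1% of all genes, 20.7% higher and 27.4% lower), and gallbladder against small intestine 15 higher and 10 lower (45%, 20.7% and 24.3%). Liver against small intestine tissue gave 8 higher and 12 lower (37.5%, 18.7% and 18.8%). For the mean of the 3 undifferentiated organoid groups against the mean of the 3 tissues, 11 chains were higher and 20 lower (53.7%, 33.7% and 19.9%). The 7 group means of a chain spanned more than 2 log2 units for 25 of 37 chains, and for 20.8% of all genes. These comparisons share arrays with each other, so each stands for itself.

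The alpha 5, beta 1, beta 2 and gamma 1 chains make up the broadly expressed laminins of adult epithelial basement membranes. Lama5, the alpha 5 chain, read 11.21 and 11.27 in differentiated gallbladder organoids, 10.91 and 10.71 in gallbladder organoids, 11.30 and 11.52 in liver organoids, as well as 8.34 and 8.01 in small intestine organoids. In tissue, Lama5 read 10.77 and 10.52 in gallbladder tissue, 7.74 and 7.78 in liver tissue, and 8.36 and 8.10 in small intestine tissue. Gallbladder and liver organoids and gallbladder tissue were high, the arrays of small intestine organoids and tissue overlapped, and liver tissue was the lowest group. The difference was 2.64 ± 0.15 (SE, adjusted p = 7.52e-07) in gallbladder against small intestine organoids, 3.23 ± 0.15 (SE, adjusted p = 1.67e-07) in liver against small intestine organoids and 3.65 ± 0.15 (SE, adjusted p = 7.09e-08) in liver organoids against liver tissue. Gallbladder organoids were lower than liver organoids at a difference of -0.60, a call that did not hold without either differentiated gallbladder organoid array (0.0524 each), either gallbladder organoid array (0.0785 for replicate 1, 0.207 for 2) or either liver organoid array (0.0624 for replicate 1, 0.205 for 2). Gallbladder organoids minus gallbladder tissue was 0.16 and was not called (adjusted p = 0.406).

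Lamb2, the beta 2 chain, read 10.63 and 10.65 in differentiated gallbladder organoids, 10.63 and 10.49 in gallbladder organoids, 10.73 and 10.87 in liver organoids, as well as 9.12 and 8.70 in small intestine organoids. In tissue, Lamb2 read 10.34 and 10.20 in gallbladder tissue, 8.43 and 8.48 in liver tissue, and 8.75 and 8.18 in small intestine tissue. Liver organoids were again its highest group, and liver and small intestine tissue were its lowest. Its difference was 1.64 ± 0.19 (SE, adjusted p = 8.02e-05) in gallbladder against small intestine organoids and 2.35 ± 0.19 (SE, adjusted p = 4.23e-06) in liver organoids against liver tissue. Lamc1, the gamma 1 chain shared by most laminins, read 11.40 and 11.43 in differentiated gallbladder organoids, 10.70 and 10.51 in gallbladder organoids, 11.15 and 11.52 in liver organoids, as well as 8.88 and 8.66 in small intestine organoids. In tissue, Lamc1 read 10.81 and 10.90 in gallbladder tissue, 8.84 and 8.87 in liver tissue, and 9.20 and 8.53 in small intestine tissue. It was higher in gallbladder than in small intestine organoids by 1.83 ± 0.20 (SE, adjusted p = 6.42e-05) and in liver organoids than in liver tissue by 2.48 ± 0.20 (SE, adjusted p = 4.71e-06). It was lower in gallbladder than in liver organoids at a difference of -0.73, which was not called without either differentiated gallbladder organoid array (0.0665 each), either gallbladder organoid array (0.114 for replicate 1, 0.228 for 2), either liver organoid array (0.0592 for replicate 1, 0.266 for 2) or either small intestine organoid array (0.0577 each).

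Lamb1, the beta 1 chain, ran differently from its partners. It read 9.54 and 9.51 in differentiated gallbladder organoids, 8.77 and 8.83 in gallbladder organoids, 7.46 and 7.57 in liver organoids, as well as 6.85 and 6.80 in small intestine organoids. In tissue, Lamb1 read 11.76 and 11.28 in gallbladder tissue, 8.02 and 7.74 in liver tissue, and 8.33 and 8.20 in small intestine tissue. Gallbladder organoids stood above liver organoids by 1.29 ± 0.15 (SE, adjusted p = 0.000607) and above small intestine organoids by 1.98 ± 0.15 (SE, adjusted p = 5.53e-06). The arrays of these groups did not overlap. Of 19938 genes, 8152 higher and 5950 lower did not overlap between gallbladder and liver organoids. Between gallbladder and small intestine organoids the numbers were 10035 and 6189. Gallbladder tissue was the highest group, 3.64 ± 0.15 (SE, adjusted p = 1.9e-07) against liver tissue and 3.25 ± 0.15 (SE, adjusted p = 1.68e-07) against small intestine tissue, and gallbladder organoids stood below it at a difference of -2.71 ± 0.15 (SE, adjusted p = 7.52e-07). Liver organoids were above small intestine organoids by 0.69, a call lost without liver organoid replicate 2 (0.057) or small intestine organoid replicate 2 (0.0501).

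Upstream bases of Lama5 and Lamb1 are printed because the means of these partner chains had opposite orders in gallbladder and liver organoids. For Lama5 that order rests on the difference of -0.60, whose call did not hold in several fits with 1 array left out. They come from the RefSeq promoter table on GRCm38.p6, whose windows hold 250 bases before 1 start per entry, and run 5′ to 3′ on the gene's strand. The last 45 of those bases for Lama5 and 147 for Lamb1 lie inside the annotated gene and are left out, which leaves 205 and 103 bases. Capitals mark matches on either strand to GGGCGG, the GC box bound by Sp and KLF factors. The Lama5 stretch lies at chr2:180225905-180226109 (minus strand) and the Lamb1 stretch at chr12:31265043-31265145 (plus strand).
Lama5: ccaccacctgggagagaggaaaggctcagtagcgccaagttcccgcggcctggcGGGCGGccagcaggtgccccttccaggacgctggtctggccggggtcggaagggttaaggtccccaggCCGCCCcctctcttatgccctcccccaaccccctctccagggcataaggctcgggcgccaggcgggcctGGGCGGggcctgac
Lamb1: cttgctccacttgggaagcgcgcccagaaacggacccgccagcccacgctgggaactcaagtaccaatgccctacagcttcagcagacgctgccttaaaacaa
The Lama5 stretch held 3 matches and that of Lamb1 held 0, so none of its bases is in capitals. With the bases inside the gene, the full windows of 250 bases held 4 matches for Lama5 and 2 for Lamb1. Over 250 bases, 32.7% of all windows had at least 1. At least 1 match was present in 25.6% of the 32851 table windows over their first 205 bases and in 10.8% over their first 103. The same search on both strands for TGANTCA (AP-1), GGAATG (TEAD) and TATAAA found no match in either stretch. Those motifs were present in 5.71%, 10.9% and 9.33% of windows over the first 205 bases, and in 2.57%, 5.45% and 5.38% over the first 103. Of the 37 chains, 24 had a window in the table.

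The alpha 3 and beta 3 chains belong to laminin that anchors epithelia through hemidesmosomes and is laid down by migrating epithelial cells. Lama3, the alpha 3 chain, read 9.83 and 9.44 in differentiated gallbladder organoids, 8.45 and 8.42 in gallbladder organoids, 9.75 and 10.17 in liver organoids, as well as 6.93 and 7.21 in small intestine organoids. In tissue, Lama3 read 7.15 and 7.74 in gallbladder tissue, 7.29 and 7.34 in liver tissue, and 9.85 and 9.36 in small intestine tissue. Liver organoids, differentiated gallbladder organoids and small intestine tissue were high, and small intestine organoids were among the lowest groups. Gallbladder organoids were below liver organoids at a difference of -1.52 ± 0.24 (SE, adjusted p = 0.00269) and above small intestine organoids by 1.37 ± 0.24 (SE, adjusted p = 0.00137). Liver organoids exceeded liver tissue by 2.64 ± 0.24 (SE, adjusted p = 9.77e-06), while small intestine organoids were below small intestine tissue at a difference of -2.54 ± 0.24 (SE, adjusted p = 2.82e-05). Lamb3, the beta 3 chain, read 10.23 and 10.16 in differentiated gallbladder organoids, 9.70 and 9.55 in gallbladder organoids, 11.21 and 11.22 in liver organoids, as well as 9.83 and 9.75 in small intestine organoids. In tissue, Lamb3 read 7.74 and 7.62 in gallbladder tissue, 7.71 and 7.35 in liver tissue, and 9.49 and 8.60 in small intestine tissue. It was highest in liver organoids, with gallbladder minus liver organoids at -1.59 ± 0.23 (SE, adjusted p = 0.00208), and small intestine organoids did not share the low level seen for Lama3. Organoids were above tissue in gallbladder (1.95 ± 0.23 SE, adjusted p = 0.000112) and liver (3.68 ± 0.23 SE, adjusted p = 1.01e-06). In small intestine the difference of 0.74 was not called without either small intestine organoid array (0.132 for replicate 1, 0.0984 for 2) or small intestine tissue replicate 2 (0.182).

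The remaining laminin chains belong mostly to muscle, vessels and early embryos. Lama2, the alpha chain of muscle laminin, read 6.15 and 6.16 in differentiated gallbladder organoids, 6.24 and 6.22 in gallbladder organoids, 6.18 and 6.11 in liver organoids, as well as 5.93 and 5.89 in small intestine organoids. In tissue, Lama2 read 8.87 and 8.68 in gallbladder tissue, 7.06 and 6.95 in liver tissue, and 7.32 and 7.22 in small intestine tissue. All tissue arrays lay above all organoid arrays, with organoids minus tissue at -2.55 ± 0.10 (SE, adjusted p = 6.64e-08) in gallbladder, -0.86 ± 0.10 (SE, adjusted p = 4.43e-05) in liver and -1.36 ± 0.10 (SE, adjusted p = 6.15e-06) in small intestine. Lama4, the alpha chain of vessel laminin, read 8.48 and 8.47 in differentiated gallbladder organoids, 8.83 and 8.57 in gallbladder organoids, 8.30 and 8.36 in liver organoids, as well as 6.61 and 6.15 in small intestine organoids. In tissue, Lama4 read 9.67 and 9.63 in gallbladder tissue, 6.76 and 7.82 in liver tissue, and 7.78 and 8.07 in small intestine tissue. Gallbladder and liver organoid arrays lay above all small intestine organoid arrays, where gallbladder stood above small intestine by 2.32 ± 0.28 (SE, adjusted p = 0.000139) and liver above small intestine by 1.95 ± 0.28 (SE, adjusted p = 0.000516). Endothelial markers (Pecam1, Cdh5, Kdr, Tek, Emcn and Eng, 6 of 6 measured) averaged 6.16 to 6.43 in all organoid arrays against 8.16 to 10.12 in the tissue arrays, and 0 of 6 were called between gallbladder and small intestine or liver and small intestine organoids. Fibroblast markers had 5 of 7 called higher and 0 lower in gallbladder than in small intestine organoids, with a median difference of 0.39, and smooth muscle markers 2 of 6 higher and 0 lower, with a median of 0.18. In liver against small intestine organoids 0 of 7 fibroblast and 0 of 6 smooth muscle markers were called. Their part in the Lama4 difference was not tested. Gallbladder organoids were below gallbladder tissue in Lama4 at a difference of -0.95, which was not called without gallbladder organoid replicate 2 (0.114) or either gallbladder tissue array (0.0611 for replicate 1, 0.0527 for 2). Liver organoids were above liver tissue by 1.04, not called without liver organoid replicate 2 (0.0648) or liver tissue replicate 1 (0.0703). Lama1, the embryonic alpha chain, had 7.91 and 7.42 in liver tissue and 6.47 to 6.86 in the other arrays, and liver organoids were below liver tissue at a difference of -1.17 ± 0.14 (SE, adjusted p = 8.68e-05). Lamc3 kept all its arrays between 7.67 and 8.57. Its difference of -0.49 in liver organoids against liver tissue was not called without liver organoid replicate 2 (0.177) or liver tissue replicate 1 (0.138).

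**Figure D2:**
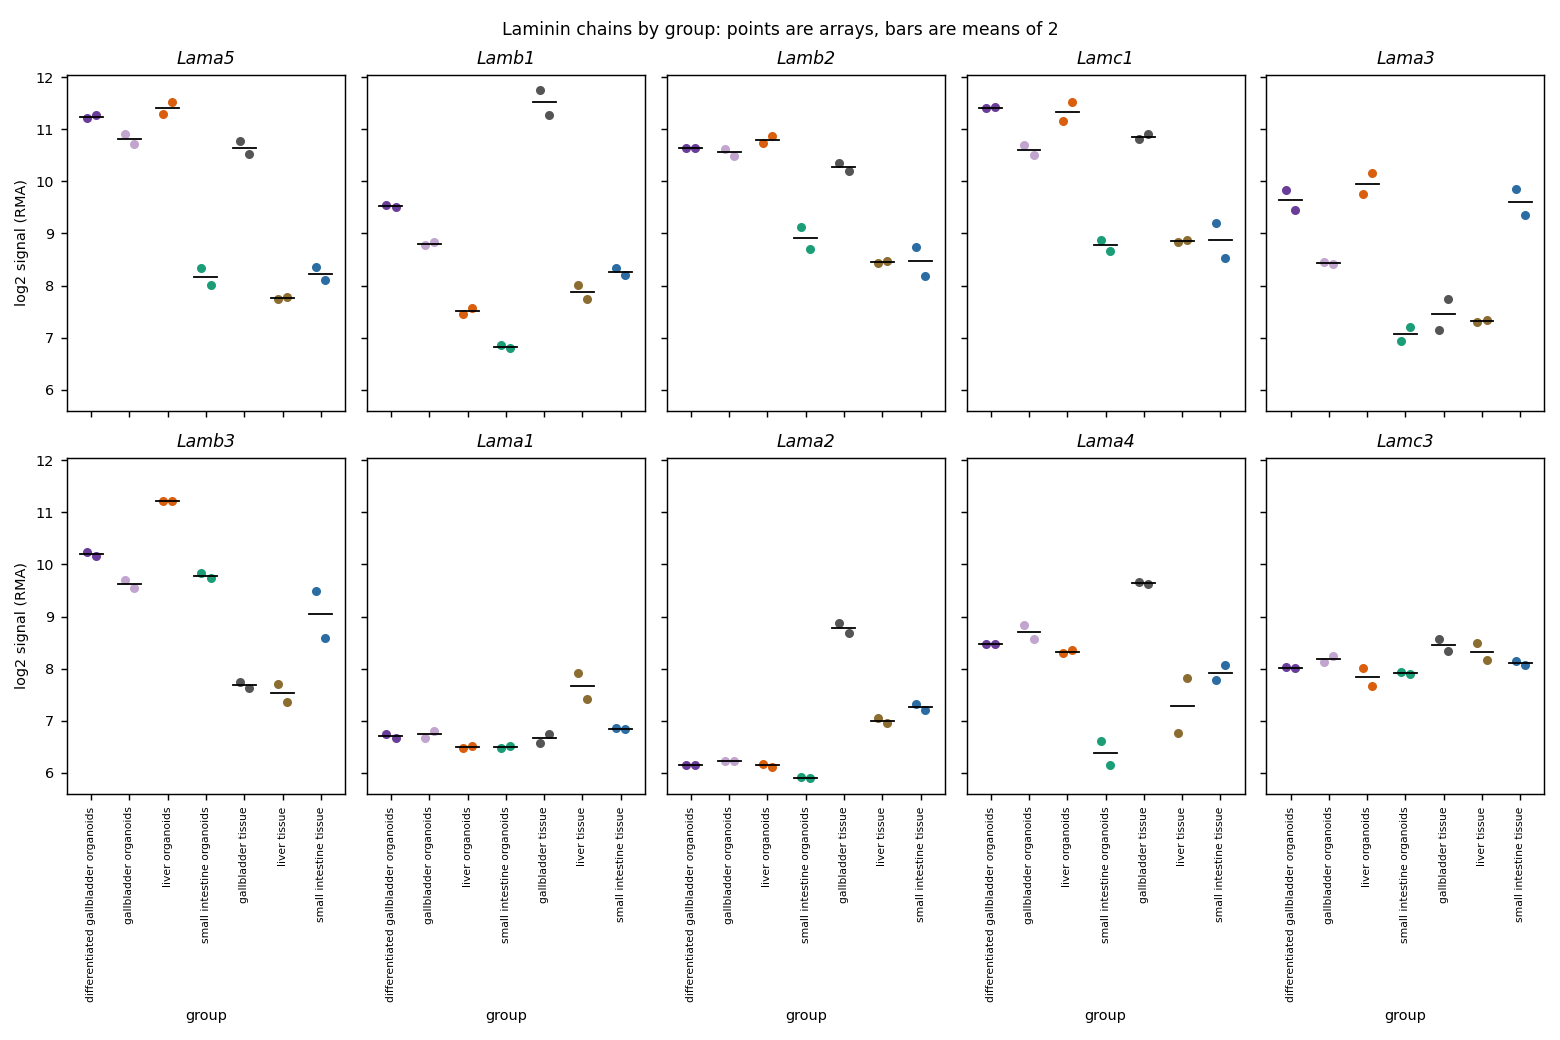
Log2 signal of the 10 laminin chains by group, with 1 panel per gene, points for arrays and black bars for the mean of 2 arrays. Lama5, Lamb2 and Lamc1 are low in small intestine organoids and also in liver and small intestine tissue, and Lama4 is lowest in small intestine organoids. Lamb1 peaks in gallbladder tissue, and Lamb3 peaks in liver organoids among the cultures. Lama3 has its highest mean in liver organoids, where the arrays overlap those of differentiated gallbladder organoids.

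Among the integrin receptors for laminin, the alpha 6 and beta 4 chains pair in hemidesmosomes. Itga6 read 11.99 and 11.90 in differentiated gallbladder organoids, 11.70 and 11.59 in gallbladder organoids, 11.85 and 11.92 in liver organoids, as well as 11.70 and 11.80 in small intestine organoids. In tissue, Itga6 read 10.98 and 10.23 in gallbladder tissue, 7.45 and 7.77 in liver tissue, and 11.94 and 11.92 in small intestine tissue. All organoid groups and small intestine tissue lay above 11.5, gallbladder tissue lay between, and liver tissue was far below. Itga6 did not pass between organoids of different origin (-0.25, -0.11 and 0.14 for gallbladder minus liver, gallbladder minus small intestine and liver minus small intestine organoids). It was higher in organoids than in tissue by 4.28 ± 0.20 (SE, adjusted p = 1.62e-07) in liver and by 1.04 ± 0.20 (SE, adjusted p = 0.00221) in gallbladder. Its partner Itgb4 read 11.35 and 11.35 in differentiated gallbladder organoids, 10.75 and 10.71 in gallbladder organoids, 10.83 and 11.20 in liver organoids, as well as 10.60 and 10.46 in small intestine organoids. In tissue, Itgb4 read 9.99 and 9.62 in gallbladder tissue, 7.79 and 7.90 in liver tissue, and 11.58 and 10.70 in small intestine tissue. Liver tissue was again the lowest group, with liver organoids above it by 3.17 ± 0.24 (SE, adjusted p = 3.56e-06). In gallbladder the difference of 0.93 was not called without gallbladder organoid replicate 1 (0.0551) or gallbladder tissue replicate 2 (0.0621).

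Itga3, the alpha chain that pairs with beta 1 on epithelial cells, read 11.86 and 11.84 in differentiated gallbladder organoids, 11.73 and 11.78 in gallbladder organoids, 11.28 and 11.49 in liver organoids, as well as 10.06 and 10.05 in small intestine organoids. In tissue, Itga3 read 10.27 and 9.97 in gallbladder tissue, 7.69 and 7.99 in liver tissue, and 11.36 and 11.05 in small intestine tissue. Gallbladder and liver organoids stood above small intestine organoids by 1.70 ± 0.15 (SE, adjusted p = 1.5e-05) and 1.33 ± 0.15 (SE, adjusted p = 8.74e-05). Organoids were above tissue in gallbladder (1.63 ± 0.15 SE, adjusted p = 1.91e-05) and liver (3.54 ± 0.15 SE, adjusted p = 7.75e-08) but below it in small intestine (-1.15 ± 0.15 SE, adjusted p = 0.000223). Itgb1, the common partner of many alpha chains, read 11.69 and 11.66 in differentiated gallbladder organoids, 11.66 and 11.54 in gallbladder organoids, 11.66 and 11.69 in liver organoids, as well as 10.76 and 10.74 in small intestine organoids. In tissue, Itgb1 read 11.66 and 11.66 in gallbladder tissue, 10.95 and 10.87 in liver tissue, and 11.22 and 10.89 in small intestine tissue. Small intestine organoids were its lowest group, with gallbladder organoids higher by 0.85 ± 0.11 (SE, adjusted p = 0.000231) and liver organoids higher by 0.93 ± 0.11 (SE, adjusted p = 0.000141). Itga7, a laminin receptor of muscle, had 6.64 to 7.02 in organoids and 7.20 to 8.49 in tissue, and liver organoids were below liver tissue at a difference of -1.36 ± 0.21 (SE, adjusted p = 0.000425).

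Of the alpha chains for collagen, Itga2 had the largest difference between the mean of the 3 undifferentiated organoid groups and the mean of the 3 tissues among the 37 chains, 4.08 ± 0.20 (SE, adjusted p = 1.12e-07). Itga2, which pairs with beta 1 on epithelial cells and platelets, read 12.89 and 12.88 in differentiated gallbladder organoids, 13.04 and 12.99 in gallbladder organoids, 12.47 and 12.79 in liver organoids, as well as 11.01 and 10.92 in small intestine organoids. In tissue, Itga2 read 8.17 and 7.13 in gallbladder tissue, 7.32 and 6.99 in liver tissue, and 10.03 and 9.11 in small intestine tissue. No organoid array overlapped a tissue array. For the undifferentiated organoids this held upward for 2 of 37 chains and for 1337 of 19938 genes. Organoids minus tissue was 5.37 ± 0.34 (SE, adjusted p = 1.61e-06) in gallbladder and 5.47 ± 0.34 (SE, adjusted p = 8.4e-07) in liver. In small intestine it was 1.40, a call lost without small intestine organoid replicate 1 (0.0502) or small intestine tissue replicate 2 (0.0636). Gallbladder organoids were above small intestine organoids by 2.05 ± 0.34 (SE, adjusted p = 0.00101) and liver organoids above them by 1.66 ± 0.34 (SE, adjusted p = 0.00427).

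Itga1, a collagen receptor of stromal cells, read 8.32 and 8.49 in differentiated gallbladder organoids, 7.39 and 7.32 in gallbladder organoids, 7.79 and 9.05 in liver organoids, as well as 8.87 and 8.71 in small intestine organoids. In tissue, Itga1 read 9.76 and 9.84 in gallbladder tissue, 9.77 and 9.60 in liver tissue, and 8.99 and 8.44 in small intestine tissue. It was the 1 chain called lower in gallbladder than in small intestine organoids (-1.43 ± 0.33 SE, adjusted p = 0.00663), and its 2 liver organoid arrays differed by more than 1 log2 unit. Gallbladder organoids were below gallbladder tissue at a difference of -2.44 ± 0.33 (SE, adjusted p = 0.000213) and liver organoids below liver tissue at a difference of -1.27 ± 0.33 (SE, adjusted p = 0.00903). Itga10 was called in 0 of 11 comparisons and kept its arrays between 7.07 and 7.57. Itga11 ranged from 6.60 to 7.49, and its difference of -0.53 in small intestine organoids against tissue was not called without small intestine organoid replicate 2 (0.235) or small intestine tissue replicate 1 (0.162).

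Among alpha chains for fibronectin and other matrix ligands, Itga8, Itga9 and Itga4 had every organoid array below every tissue array. For the undifferentiated organoids, 9 of the 37 chains and 798 of 19938 genes were placed so. Itga8, a receptor for nephronectin found on smooth muscle and mesenchyme, read 5.95 and 5.86 in differentiated gallbladder organoids, 6.14 and 5.97 in gallbladder organoids, 6.07 and 5.73 in liver organoids, as well as 6.07 and 5.94 in small intestine organoids. In tissue, Itga8 read 10.57 and 10.32 in gallbladder tissue, 8.17 and 8.30 in liver tissue, and 7.27 and 7.96 in small intestine tissue. Organoids minus tissue was -4.39 ± 0.21 (SE, adjusted p = 2.59e-07) in gallbladder, -2.34 ± 0.21 (SE, adjusted p = 9e-06) in liver and -1.62 ± 0.21 (SE, adjusted p = 0.000191) in small intestine. Gallbladder tissue was the highest group, above small intestine tissue by 2.83 ± 0.21 (SE, adjusted p = 3.45e-06) and liver tissue by 2.21 ± 0.21 (SE, adjusted p = 2.39e-05). Itga9, a receptor for tenascin and VCAM1, read 6.90 and 6.79 in differentiated gallbladder organoids, 6.82 and 7.00 in gallbladder organoids, 7.06 and 7.05 in liver organoids, as well as 7.08 and 6.66 in small intestine organoids. In tissue, Itga9 read 10.38 and 10.38 in gallbladder tissue, 9.51 and 9.34 in liver tissue, and 8.24 and 8.56 in small intestine tissue, and organoids minus tissue was -3.47 ± 0.16 (SE, adjusted p = 1.85e-07), -2.37 ± 0.16 (SE, adjusted p = 1.23e-06) and -1.53 ± 0.16 (SE, adjusted p = 4.7e-05) in gallbladder, liver and small intestine. Those groups did not overlap either. Itga4, which white blood cells use to bind VCAM1, read 6.17 and 6.17 in differentiated gallbladder organoids, 6.28 and 6.51 in gallbladder organoids, 6.21 and 6.12 in liver organoids, as well as 6.76 and 6.54 in small intestine organoids. In tissue, Itga4 read 8.61 and 8.20 in gallbladder tissue, 7.59 and 7.80 in liver tissue, and 8.16 and 8.79 in small intestine tissue. Organoids minus tissue was -2.01 ± 0.21 (SE, adjusted p = 3.67e-05) in gallbladder, -1.53 ± 0.21 (SE, adjusted p = 0.00015) in liver and -1.83 ± 0.21 (SE, adjusted p = 8.56e-05) in small intestine. Fibroblast markers (7 of 7 measured) averaged 6.71 to 7.07 in organoid arrays and 8.98 to 10.46 in tissue arrays. The means of smooth muscle, endothelial and leukocyte markers were also lower in every organoid array than in every tissue array. The part of these cell types in the differences was not tested.

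Upstream bases of Itga2 and Itga8 are printed because these chains had the largest differences in either direction between the mean of the undifferentiated organoid groups and the mean of the tissues. The Itga2 stretch lies at chr13:114932101-114932350 (minus strand) and holds 250 bases, and that of Itga8 at chr2:12301986-12302194 (minus strand) holds 209, the last 41 of its RefSeq window (GRCm38.p6) being left out because they lie inside the annotated gene.
Itga2: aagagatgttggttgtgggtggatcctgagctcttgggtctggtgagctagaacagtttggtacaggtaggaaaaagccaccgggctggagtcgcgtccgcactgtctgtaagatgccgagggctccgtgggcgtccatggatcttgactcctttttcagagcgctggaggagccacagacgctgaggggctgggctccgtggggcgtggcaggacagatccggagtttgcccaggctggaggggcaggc
Itga8: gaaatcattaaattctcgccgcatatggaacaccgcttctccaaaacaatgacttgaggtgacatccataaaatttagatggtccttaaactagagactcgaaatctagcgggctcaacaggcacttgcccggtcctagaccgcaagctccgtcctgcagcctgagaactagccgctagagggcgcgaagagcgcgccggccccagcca
Neither stretch held a match to any of the 4 motifs searched, so no base is in capitals. GGGCGG was present in 32.7% of all windows over 250 bases and in 26.5% over 209. The AP-1, TEAD and TATAAA motifs were present in 6.75%, 12.6% and 12.4% over 250 bases, and in 5.82%, 11.0% and 9.51% over 209.

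Itga5, the classic fibronectin receptor, read 9.07 and 9.03 in differentiated gallbladder organoids, 8.07 and 8.09 in gallbladder organoids, 8.31 and 8.62 in liver organoids, as well as 7.33 and 7.44 in small intestine organoids. In tissue, Itga5 read 10.20 and 10.16 in gallbladder tissue, 9.65 and 9.35 in liver tissue, and 8.24 and 7.71 in small intestine tissue. In each organ the tissue arrays lay above those of its organoids, and gallbladder tissue was the highest group. Organoids minus tissue was -2.10 ± 0.17 (SE, adjusted p = 9.81e-06) in gallbladder and -1.04 ± 0.17 (SE, adjusted p = 0.000685) in liver. Liver organoids were above small intestine organoids by 1.08 ± 0.17 (SE, adjusted p = 0.00104). Gallbladder organoids were above them by 0.70, a call lost without either gallbladder organoid array (0.0532 for replicate 1, 0.0614 for 2) or small intestine organoid replicate 1 (0.0695). In small intestine, organoids were below tissue at a difference of -0.59, not called without either small intestine organoid array (0.122 for replicate 1, 0.0713 for 2) or small intestine tissue replicate 1 (0.167). Itga2b, the platelet chain, read 7.53 and 7.51 in differentiated gallbladder organoids, 7.60 and 7.72 in gallbladder organoids, 7.50 and 7.51 in liver organoids, as well as 7.39 and 7.15 in small intestine organoids. In tissue, Itga2b read 7.20 and 7.32 in gallbladder tissue, 7.86 and 7.89 in liver tissue, and 7.29 and 7.34 in small intestine tissue. All its arrays lay between 7.15 and 7.89.

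Itgav, the alpha v chain, pairs with several beta chains that bind RGD ligands and activate latent TGF-beta. It read 11.28 and 11.26 in differentiated gallbladder organoids, 11.53 and 11.43 in gallbladder organoids, 11.62 and 11.97 in liver organoids, as well as 9.18 and 9.17 in small intestine organoids. In tissue, Itgav read 10.79 and 10.64 in gallbladder tissue, 10.15 and 9.99 in liver tissue, and 10.31 and 9.76 in small intestine tissue. Small intestine organoids were the lowest group, 2.30 ± 0.17 (SE, adjusted p = 4.71e-06) for gallbladder against them and 2.62 ± 0.17 (SE, adjusted p = 1.98e-06) for liver against them. Organoids were above tissue in gallbladder (0.76 ± 0.17 SE, adjusted p = 0.0051) and liver (1.73 ± 0.17 SE, adjusted p = 2.15e-05) and below it in small intestine (-0.86 ± 0.17 SE, adjusted p = 0.00315). Itgb6, the epithelial partner of alpha v and an activator of latent TGF-beta, read 11.29 and 11.24 in differentiated gallbladder organoids, 10.53 and 10.28 in gallbladder organoids, 11.39 and 11.67 in liver organoids, as well as 9.56 and 9.45 in small intestine organoids. In tissue, Itgb6 read 11.30 and 10.64 in gallbladder tissue, 6.18 and 6.03 in liver tissue, and 9.76 and 9.41 in small intestine tissue. Liver tissue was at 6.18 and 6.03, more than 3 log2 units under every other array. Liver organoids exceeded liver tissue by 5.43 ± 0.21 (SE, adjusted p = 4.81e-08) and small intestine organoids by 2.03 ± 0.21 (SE, adjusted p = 4.11e-05). Gallbladder organoids were lower than liver organoids at a difference of -1.13, not called without gallbladder organoid replicate 2 (0.0695) or liver organoid replicate 2 (0.067). They were above small intestine organoids by 0.90, not called without gallbladder organoid replicate 1 (0.0607) or small intestine organoid replicate 2 (0.0507). They were below gallbladder tissue at a difference of -0.57, not called without either differentiated gallbladder organoid array (0.0633 each), either gallbladder organoid array (0.0684 for replicate 1, 0.22 for 2), either liver organoid array (0.0529 each), either small intestine organoid array (0.0616 each), gallbladder tissue replicate 1 (0.308) or either liver tissue array (0.0521 each).

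Itgb8, another activator of latent TGF-beta, was high in gallbladder tissue alone, and its 2 arrays there lay far apart. It read 6.74 and 6.50 in differentiated gallbladder organoids, 6.20 and 6.36 in gallbladder organoids, 6.75 and 6.26 in liver organoids, as well as 6.07 and 5.89 in small intestine organoids. In tissue, Itgb8 read 8.79 and 10.42 in gallbladder tissue, 6.08 and 6.57 in liver tissue, and 5.99 and 6.19 in small intestine tissue. Gallbladder tissue exceeded liver tissue by 3.28 ± 0.42 (SE, adjusted p = 0.000172) and small intestine tissue by 3.52 ± 0.42 (SE, adjusted p = 9.18e-05), and gallbladder organoids were below gallbladder tissue at a difference of -3.33 ± 0.42 (SE, adjusted p = 0.000142). A fit without either gallbladder tissue array keeps only 1 array in that group, so the gap between them no longer enters the SE. Such fits cannot show whether these differences withstand that gap. Itgb3, the beta chain of platelets, endothelium and osteoclasts, read 7.11 and 7.10 in differentiated gallbladder organoids, 7.11 and 7.04 in gallbladder organoids, 7.09 and 6.82 in liver organoids, as well as 6.83 and 6.83 in small intestine organoids. In tissue, Itgb3 read 9.69 and 9.15 in gallbladder tissue, 9.31 and 7.86 in liver tissue, and 8.10 and 7.90 in small intestine tissue. Every organoid array lay below every tissue array. Organoids minus tissue was -2.35 ± 0.37 (SE, adjusted p = 0.00056) in gallbladder and -1.63 ± 0.37 (SE, adjusted p = 0.00415) in liver. In small intestine it was -1.17, not called without either small intestine organoid array (0.107 for replicate 1, 0.112 for 2) or either small intestine tissue array (0.114 for replicate 1, 0.0634 for 2). Itgb5, the vitronectin receptor's beta chain, read 9.83 and 9.81 in differentiated gallbladder organoids, 10.74 and 10.71 in gallbladder organoids, 10.83 and 10.56 in liver organoids, as well as 9.87 and 9.61 in small intestine organoids. In tissue, Itgb5 read 10.34 and 10.78 in gallbladder tissue, 10.92 and 11.21 in liver tissue, and 11.34 and 10.49 in small intestine tissue. Small intestine organoids were below their tissue at a difference of -1.18 ± 0.25 (SE, adjusted p = 0.00453). Gallbladder and liver organoids were above small intestine organoids by 0.98 and 0.95, calls lost without either gallbladder organoid array (0.0653 for replicate 1, 0.0602 for 2) or small intestine organoid replicate 2 (0.0935) for the first and without liver organoid replicate 1 (0.124) or small intestine organoid replicate 2 (0.129) for the other.

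**Figure D3:**
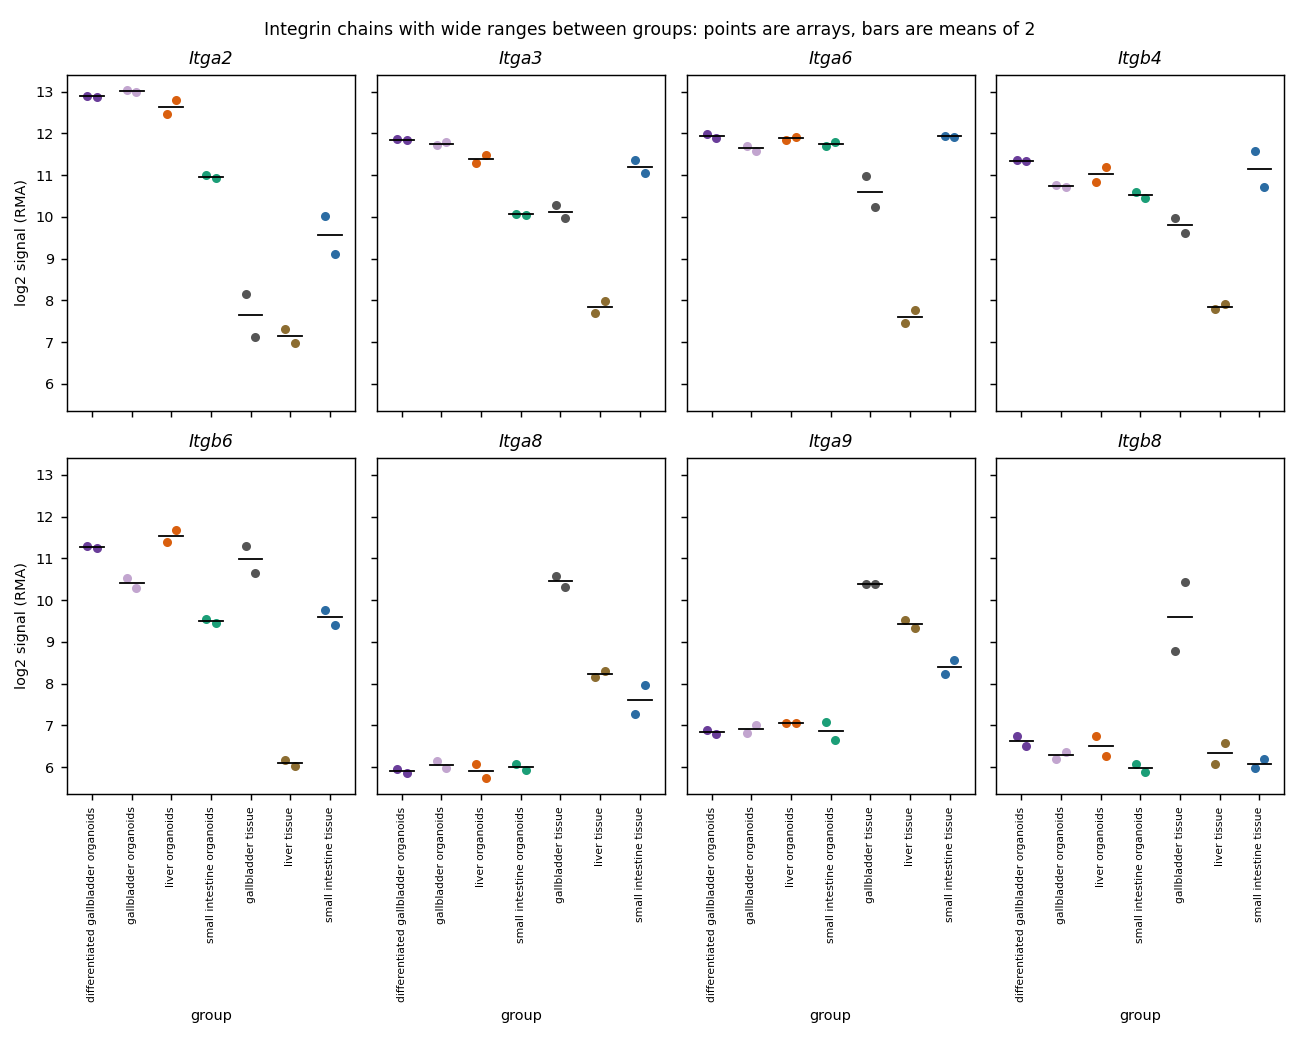
Log2 signal of 8 integrin chains by group, with 1 panel per gene, points for arrays and black bars for the mean of 2 arrays. Itga3, Itga6, Itgb4 and Itgb6 share a low liver tissue, Itga2 is high in organoids, Itga8 and Itga9 are high in tissue, and Itgb8 is high in gallbladder tissue.

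Leukocyte integrins, 8 chains used mainly by white blood cells, were led in tissue by different members in liver and small intestine. Itgb2, the common beta chain of this family, read 6.25 and 6.22 in differentiated gallbladder organoids, 6.25 and 6.54 in gallbladder organoids, 6.12 and 6.17 in liver organoids, as well as 6.23 and 6.19 in small intestine organoids. In tissue, Itgb2 read 6.89 and 7.43 in gallbladder tissue, 8.29 and 8.35 in liver tissue, and 7.43 and 8.50 in small intestine tissue. Liver organoids were below liver tissue at a difference of -2.17 ± 0.29 (SE, adjusted p = 0.000143) and small intestine organoids below small intestine tissue at a difference of -1.75 ± 0.29 (SE, adjusted p = 0.000915). Itgal, the alpha chain of LFA-1, was highest in liver tissue (8.25 and 8.66) and read 6.56 and 6.47 in differentiated gallbladder organoids, 6.65 and 6.44 in gallbladder organoids, 6.33 and 6.29 in liver organoids, as well as 6.33 and 6.29 in small intestine organoids. In tissue, Itgal read 6.71 and 6.91 in gallbladder tissue, 8.25 and 8.66 in liver tissue, and 6.98 and 7.39 in small intestine tissue, with liver organoids minus liver tissue at -2.14 ± 0.17 (SE, adjusted p = 3.82e-06). Itgax (CD11c of dendritic cells) and Itgae (CD103 of lymphocytes inside epithelia) were highest in small intestine tissue, at 7.65 and 8.60 for Itgax and 7.89 and 9.39 for Itgae, and both were higher in its replicate 2, the array with the higher leukocyte marker level. Itgax read 5.78 and 5.76 in differentiated gallbladder organoids, 6.07 and 6.16 in gallbladder organoids, 5.85 and 5.95 in liver organoids, as well as 5.94 and 5.91 in small intestine organoids. In tissue, Itgax read 6.58 and 6.74 in gallbladder tissue, 6.57 and 6.25 in liver tissue, and 7.65 and 8.60 in small intestine tissue. Itgae read 7.26 and 7.39 in differentiated gallbladder organoids, 7.29 and 7.12 in gallbladder organoids, 7.00 and 7.11 in liver organoids, as well as 6.81 and 6.44 in small intestine organoids. In tissue, Itgae read 7.31 and 7.24 in gallbladder tissue, 6.98 and 6.89 in liver tissue, and 7.89 and 9.39 in small intestine tissue. Small intestine organoids were below that tissue in Itgax at a difference of -2.20 ± 0.24 (SE, adjusted p = 7.92e-05) and in Itgae at a difference of -2.01 ± 0.36 (SE, adjusted p = 0.00154). Leukocyte markers (8 of 8 measured) averaged 6.32 to 7.09 in organoid arrays, 7.88 and 8.17 in gallbladder tissue, 9.02 and 9.10 in liver tissue, and 8.85 and 10.03 in small intestine tissue, and their part in these differences was not tested. Itgam, the alpha chain of Mac-1, read 7.50 and 7.33 in differentiated gallbladder organoids, 6.83 and 6.92 in gallbladder organoids, 7.27 and 7.44 in liver organoids, as well as 6.50 and 6.68 in small intestine organoids. In tissue, Itgam read 7.48 and 7.04 in gallbladder tissue, 7.20 and 6.93 in liver tissue, and 7.67 and 7.61 in small intestine tissue. Itgb2l, a beta chain related to Itgb2, read 7.43 and 7.23 in differentiated gallbladder organoids, 7.37 and 7.42 in gallbladder organoids, 7.29 and 7.13 in liver organoids, as well as 7.04 and 6.92 in small intestine organoids. In tissue, Itgb2l read 6.97 and 7.29 in gallbladder tissue, 7.08 and 7.02 in liver tissue, and 7.18 and 7.10 in small intestine tissue. Itgam, Itgb7, Itgb2l and Itgad kept within 6.50 to 8.87, and the 2 probe sets of Itgad disagreed: liver organoids minus liver tissue was called at -0.52 on the brighter one and was lost when both were averaged (adjusted p = 0.0844).

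Removal of the 3 medium factors from gallbladder organoids was followed by higher signals of 3 laminin and 2 integrin chains. Lama3 rose to 9.83 and 9.44 in differentiated organoids, against 8.45 and 8.42 in undifferentiated ones, a difference of 1.20 ± 0.24 (SE, adjusted p = 0.0169). Lamc1 had 11.40 and 11.43 in differentiated and 10.70 and 10.51 in undifferentiated organoids (0.82 ± 0.20 SE, adjusted p = 0.0485), and Lamb1 had 9.54 and 9.51 in differentiated and 8.77 and 8.83 in undifferentiated ones (0.72 ± 0.15 SE, adjusted p = 0.0243). The arrays of the 2 groups did not overlap for any of these chains. The same held for 14 of the 37 chains upward and 13 downward, and for 5670 genes upward and 7618 downward of 19938. The fibronectin receptor chain Itga5 had 9.07 and 9.03 in differentiated and 8.07 and 8.09 in undifferentiated organoids (0.97 ± 0.17 SE, adjusted p = 0.0109). Itgb6 had 11.29 and 11.24 in differentiated and 10.53 and 10.28 in undifferentiated organoids (0.86 ± 0.21 SE, adjusted p = 0.0449). Of the chains not called, Lama5 (0.43), Lamb3 (0.56), Itgb4 (0.62), Itga6 (0.30) and Itga1 (1.05) were among those higher in both differentiated arrays. Itgam was another, with means of 7.41 in differentiated and 6.87 in undifferentiated organoids. Chains lower in both differentiated arrays numbered 13, with 0 called, and the median of the 37 chains was -0.03. The lowest difference of the 37 was that of Itgb5, at -0.90.

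Each of these 5 calls was lost when any 1 of the 4 arrays compared was left out. Lama3 was not called without either differentiated gallbladder organoid array (0.165 for replicate 1, 0.0519 for 2) or either gallbladder organoid array (0.116 for replicate 1, 0.123 for 2). Itga5 was not called without either differentiated gallbladder organoid array (0.0982 for replicate 1, 0.0861 for 2) or either gallbladder organoid array (0.0977 for replicate 1, 0.0825 for 2), and Lamb1 was not called without either differentiated gallbladder organoid array (0.162 for replicate 1, 0.155 for 2) or either gallbladder organoid array (0.182 for replicate 1, 0.129 for 2). Itgb6 was not called without either differentiated gallbladder organoid array (0.245 for replicate 1, 0.226 for 2), either gallbladder organoid array (0.139 for replicate 1, 0.307 for 2), either liver organoid array (0.0621 each), either small intestine organoid array (0.0747 each) or either liver tissue array (0.0537 each). Lamc1 was not called without either differentiated gallbladder organoid array (0.226 for replicate 1, 0.269 for 2), either gallbladder organoid array (0.168 for replicate 1, 0.307 for 2), either liver organoid array (0.0572 each), either small intestine organoid array (0.0738 each) or either liver tissue array (0.0597 each), nor with the replicate number as a block (0.0635). When arrays were scaled again, Lamb1, Itgb6 and Lamc1 lost their calls, at adjusted p-values of 0.0858, 0.0772 and 0.0525 after quantile normalisation and 0.059, 0.0808 and 0.0638 after centring each array on its median.

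**Figure D4:**
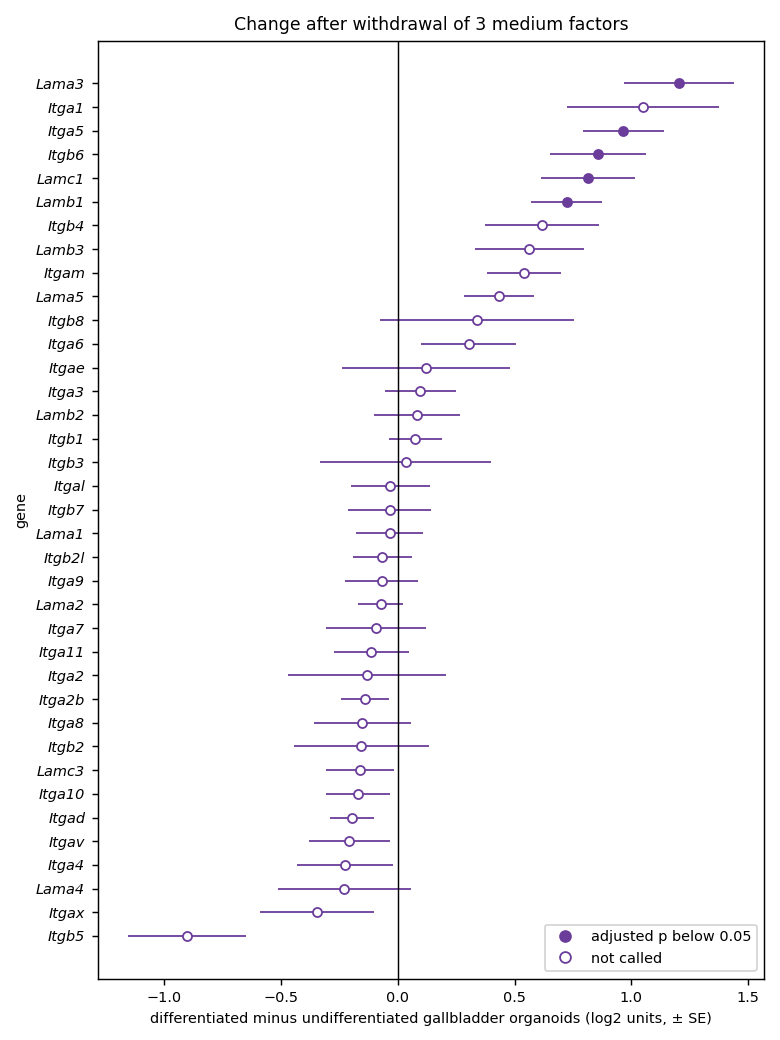
Differentiated minus undifferentiated gallbladder organoids for each of the 37 chains, in log2 units with the SE of the fit (2 arrays per group), ordered by size. Filled points are called at an adjusted p below 0.05: Lama3, Itga5, Itgb6, Lamc1 and Lamb1, between 0.72 and 1.20.

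Between organs, the distance of organoids from their own tissue differed for many chains. Culture change here means organoids minus tissue of the same organ, and the difference between 2 culture changes was tested as an interaction term. Gallbladder against liver gave 24 of 37 chains, 5 higher and 19 lower (39.8% of all genes, 22.7% higher and 17.1% lower), and gallbladder against small intestine gave 21, 14 higher and 7 lower (36.6%, 22.3% and 14.3%). Itgb6 had the largest difference between gallbladder and liver, -6.00 ± 0.29 (SE, adjusted p = 1.09e-06), followed by Itgb8 at -3.50 ± 0.59 (SE, adjusted p = 0.00139) and Lama5 at -3.49 ± 0.21 (SE, adjusted p = 3.63e-06). Itga2 (3.97 ± 0.48 SE, adjusted p = 0.000252) and Lama3 (3.53 ± 0.33 SE, adjusted p = 6.73e-05) had the largest upward differences between gallbladder and small intestine. Hepatocyte markers averaged 7.61 and 7.75 in liver organoids, against 14.26 and 14.28 in liver tissue, and epithelial markers 13.34 and 13.40 against 9.76 and 10.19. In gallbladder organoids 5 of 5 hepatocyte markers (median -7.37) and 6 of 6 smooth muscle markers (median -6.02) were called lower than in gallbladder tissue (all genes, 15.2% lower). In small intestine organoids 6 of 6 smooth muscle markers were called lower than in their tissue (median -4.58, all genes 15.6% lower). Culture and cell type cannot be told apart in any of these organs.

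**Figure D5:**
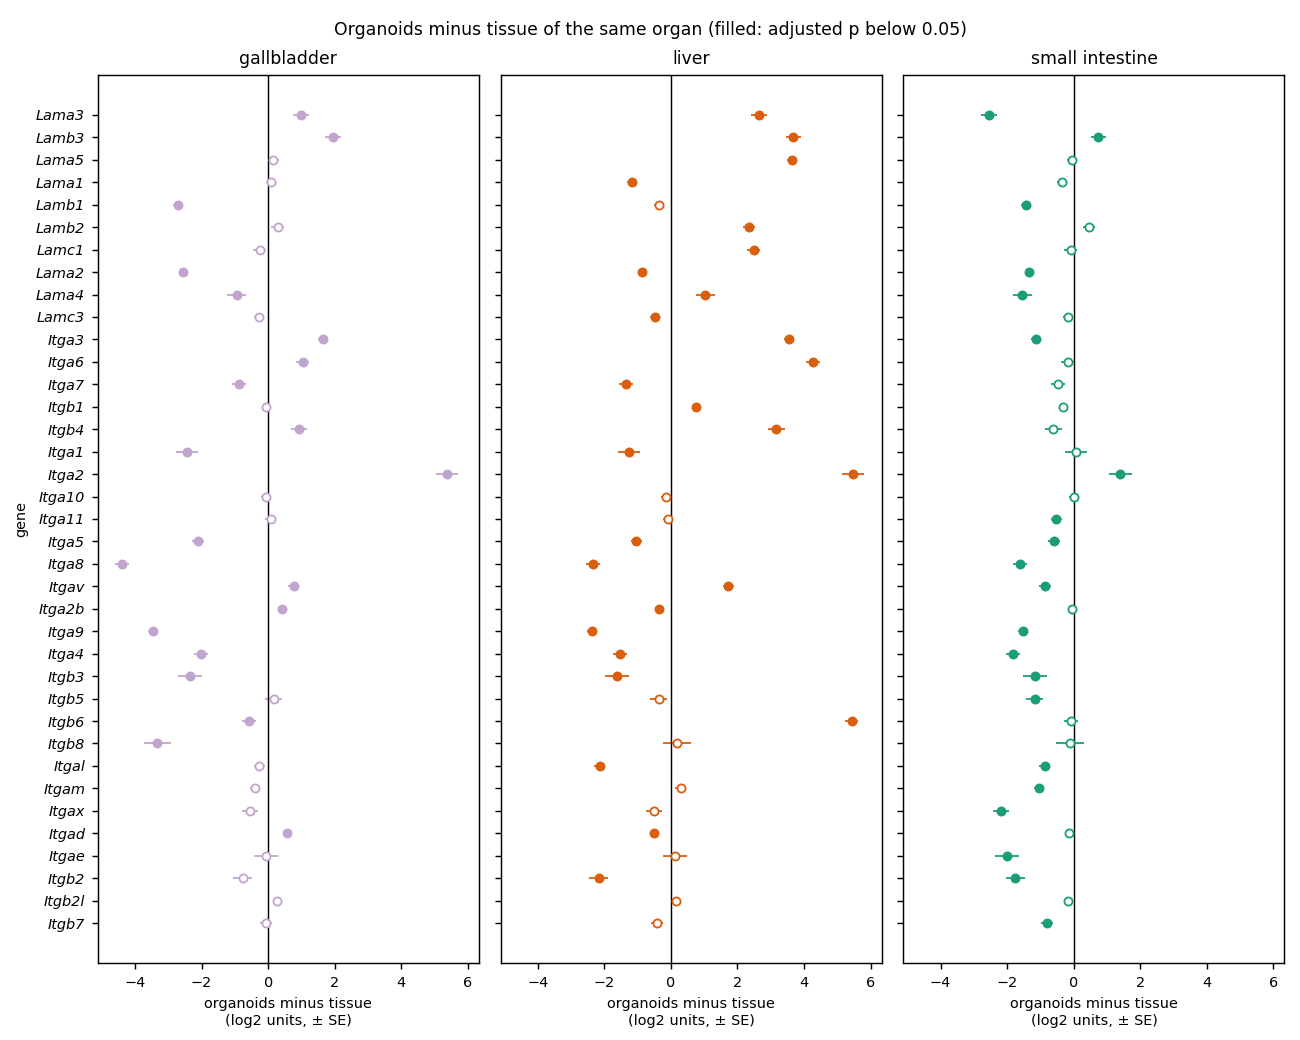
Organoids minus tissue of the same organ for the 37 chains, in log2 units with the SE of the fit (2 arrays per group), in 3 panels for gallbladder, liver and small intestine. Filled points are called at an adjusted p below 0.05. Liver organoids show rises of 2.35 to 5.47 in Lama3, Lamb3, Lama5, Lamb2, Lamc1, Itga3, Itga6, Itgb4, Itga2 and Itgb6, and Itga8, Itga9, Itga4 and Lama2 are lower in the organoids of each organ.

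Partners of these chains were read from 3 lists, without the chains themselves. Of 20 other basement membrane and laminin receptor genes, 10 were higher and 3 lower in gallbladder than in small intestine organoids (all genes, 20.2% higher and 15.4% lower), with a median of 0.32 beside 0.11 over all genes. Smoc2, a matrix protein also known from intestinal stem cells, was lower in gallbladder organoids (-4.29 ± 0.14 SE, adjusted p = 2.05e-08). In liver against small intestine organoids 10 were higher and 2 lower (all genes, 14.2% and 12.2%), with a median of 0.38 beside 0.05 over all genes, and 7 in all were called without liver organoid replicate 2 or without small intestine organoid replicate 2. Differentiated gallbladder organoids had 2 of the 20 higher than undifferentiated ones and 0 lower (all genes, 2.8% higher and 1.93% lower), with a median of -0.06. Nidogen 1 (Nid1), which links laminin to type IV collagen, had 9.37 and 9.46 in differentiated and 7.70 and 7.75 in undifferentiated organoids (1.69 ± 0.23 SE, adjusted p = 0.0024), and it was called without each array in turn. The count was 1 without any of the 4 arrays compared.

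Of 24 focal adhesion genes measured, out of 25 listed, 15 were higher and 6 lower in liver organoids than in liver tissue (all genes, 26.7% and 18.2%), with a median of 0.75 beside 0.00 over all genes. Kindlin 1 (Fermt1), an integrin activator of epithelia, was at 4.13 ± 0.29 (SE, adjusted p = 1.93e-06) in that comparison. In small intestine organoids against small intestine tissue 4 were higher and 12 lower (all genes, 20.2% and 15.6%), with a median of -0.30.

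Of 24 listed integrin ligands other than laminins, 20 were measured, and 14 were higher and 0 lower in gallbladder than in small intestine organoids (all genes, 20.2% and 15.4%), with a median of 1.17 beside 0.11 over all genes. In liver against small intestine organoids 11 were higher and 0 lower (all genes, 14.2% and 12.2%), with a median of 0.86. Fibronectin (Fn1), the ligand of the alpha 5 chain, read 11.86 and 11.82 in differentiated gallbladder organoids, 12.24 and 12.08 in gallbladder organoids, 10.88 and 11.94 in liver organoids, as well as 7.05 and 7.04 in small intestine organoids. In tissue, Fn1 read 12.66 and 13.20 in gallbladder tissue, 13.79 and 13.33 in liver tissue, and 11.00 and 10.33 in small intestine tissue. Small intestine organoids were the lowest group by more than 3 log2 units, with gallbladder organoids above them by 5.12 ± 0.34 (SE, adjusted p = 1.88e-06). VCAM1, a ligand of the alpha 4 and alpha 9 chains, had 11.20 and 11.10 in gallbladder and 6.11 and 6.30 in small intestine organoids (4.95 ± 0.35 SE, adjusted p = 3.02e-06). In small intestine organoids against small intestine tissue 1 ligand was higher and 15 were lower (all genes, 20.2% and 15.6%), with a median of -1.10. Differentiated gallbladder organoids had 3 ligands higher and 2 lower than undifferentiated ones (all genes, 2.8% and 1.93%), and 3 in all without gallbladder organoid replicate 2. Ltbp1, which holds latent TGF-beta in the matrix, was higher (1.65 ± 0.13 SE, adjusted p = 0.000117). Tgfb3, a TGF-beta ligand gene, was at -1.53 ± 0.23 (SE, adjusted p = 0.00384) and was not called without gallbladder organoid replicate 2 (0.0501).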

How the data were processed

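RNA of 14 samples was measured on 1 Affymetrix array each. As deposited, the values are on the log2 scale, 1 per probe set, and the authors made them with RMA, per the submitters' processing notes; its version was not given in the sources used here. Of 35556 probe sets, 21789 had 1 gene symbol, 1621 several and 12146 none listed, and 21698 were matched to a mouse reference table by gene number. The probe set with the highest mean was kept for the 999 genes with more than 1, leaving 19938 genes, none filtered. Groups came from sample titles, and the organ name small intestine from the design text.

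All 14 arrays entered 1 linear model with a mean for each group, using limma (version 3.58.1, R version 4.3.3). The residual degrees of freedom were 7, or 9.91 once the prior's were added. The 11 comparisons and 2 interaction terms were tested 2-sided and adjusted by Benjamini-Hochberg over all genes, with calls below 0.05. An exact permutation test of 2 against 2 arrays cannot go below 0.333. Chains called among organoids, among the 6 largest called differences of another comparison, or belonging to epithelial laminin adhesion are given array by array, others by ranges. Up to 4 partner genes per comparison are named by size. The chains, lists and tests were chosen with earlier results of these data known. Alternatives were quantile normalisation, median centring, the dimmest 40% of genes left out, mean probe sets, fewer arrays in the fit, array weights, an intensity trend, a minimum difference of 1, the replicate block, and each array left out. They were run on partner lists and genes as an addition made after seeing the data. The code was tested on simulated data.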

Additional observations from a re-analysis of the deposited data

Results flagged for a closer look

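The difference between organoids and tissue of 1 organ was itself compared between organs, and the chains for which that difference passed limma's interaction test are listed here. Values are the gallbladder difference minus that of the other organ, in log2 units, so a positive value means that gallbladder organoids stood higher relative to their tissue than the other organoids did. Both sets share the 4 gallbladder arrays.

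Against liver, 5 chains had positive values, namely Itgal (1.88), Itgb2 (1.41), Lama1 (1.25), Itgad (1.09) and Itga2b (0.77). Another 19 had negative values. The largest were Itgb6 (-6.00), Itgb8 (-3.50), Lama5 (-3.49), Itga6 (-3.24), Lamc1 (-2.74), Lamb1 (-2.35), Itgb4 (-2.24) and Lamb2 (-2.06). The others were Itga8 (-2.06), Lama4 (-1.99), Itga3 (-1.91), Lamb3 (-1.73), Lama2 (-1.69), Lama3 (-1.65), Itga9 (-1.10), Itga5 (-1.06), Itgav (-0.96), Itgb1 (-0.82) and Itgam (-0.68). Adjusted p-values ran over 1.09e-06 to 0.0349. When 1 array was left out, 21 of the 24 stayed called each time. Itgb2 lost its call without any 1 of 5 arrays (adjusted p of 0.0502 to 0.0763), Itgam without any 1 of 5 (0.0687 to 0.116) and Itgav without liver organoid replicate 2 (0.0518). Itga2 was not among the 24, at -0.10.

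Against small intestine, 14 chains had positive values. The largest were Itga2 (3.97), Lama3 (3.53), Itga3 (2.78), Itgae (1.94), Itgax (1.65), Itgav (1.63) and Itgb4 (1.54). The others were Itgb5 (1.34), Itga6 (1.22), Lamb3 (1.21), Itgb7 (0.72), Itgad (0.71), Itgam (0.66) and Itga2b (0.44). Negative values were found for 7 chains, namely Lama2 (-1.19), Lamb1 (-1.27), Itga5 (-1.51), Itga9 (-1.94), Itga1 (-2.52), Itga8 (-2.77) and Itgb8 (-3.22). Adjusted p-values ran over 1.8e-05 to 0.0476. When 1 array was left out, 15 of the 21 stayed called each time. Itgam lost its call without any 1 of 11 arrays (0.054 to 0.129), Itga2b without any 1 of 10 (0.0503 to 0.147) and Itgb7 without any 1 of 10 (0.0568 to 0.156). Itgae lost it without gallbladder organoid replicate 1 (0.0514) or small intestine organoid replicate 2 (0.0585), Lamb3 without those same arrays (0.0628 and 0.0596), and Itgb5 without small intestine organoid replicate 2 (0.0628). The 2 gallbladder tissue arrays read 8.79 and 10.42 for Itgb8, which enters both sets.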

How the results depend on the processing

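Of 255 called differences of the chains, 162 stayed called under all 23 alternatives and 189 under all except a minimum difference of 1 log2 unit, and none was called with the opposite sign. Between differentiated and undifferentiated gallbladder organoids the 5 calls became 3 after quantile normalisation (2 higher, 1 lower), 2 after median centring, 13 with the 8 organoid arrays alone, 14 with array weights and 1 with the minimum difference. Leaving out each array gave 0 to 8. Between gallbladder and liver organoids the 6 calls became 17 with organoid arrays alone and 15 with weights, and 3 to 7 without 1 array. The minimum difference left 10 of 17 calls between gallbladder and small intestine organoids, 13 of 21 between gallbladder organoids and tissue, 12 of 20 between liver and small intestine tissue, and 20 of 31 between the organoid and tissue means. Leaving out the dimmest 40% of genes, which kept 23 chains, gave 13, 12 and 20 calls in small intestine organoids against tissue, liver against small intestine tissue and the organoid against tissue means. Fewer chains were then tested. The cause of the other shifts was not tested. Over all genes, calls between differentiated and undifferentiated organoids numbered 943, against 4582 with organoid arrays alone, 5720 with weights and 427 with the minimum difference. With tissue arrays alone, gallbladder against liver tissue fell from 9597 calls to 4439, and gallbladder against small intestine tissue from 8973 to 4272. Liver against small intestine tissue fell from 7485 to 4079. In gallbladder against liver tissue Itga4, Itga5, Itgav and Itgb2 then lost their calls, and against small intestine tissue Itgae, Itgav, Itgb1, Itgb2 and Itgb3. Liver against small intestine tissue lost Itga4, Itga7, Itga8, Itgae, Itgam and Lama5. Under centring the median of all genes shifted in gallbladder against liver tissue, with a shift of -0.12. With the replicate number as a block, counts were 4 for differentiated organoids, 6 between gallbladder and liver organoids and 17 between gallbladder and small intestine organoids. The deviations of same-numbered arrays correlated at -0.104 to 0.139 over 21 pairs of groups, so the numbers were not taken as pairs. With 2 arrays per group, and no detection calls used here, low signals cannot be told from background.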
